A study of Mus musculus with 8 samples.

Results

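MeRIP-Seq of bone marrow-derived macrophages (BMDMs) gave 754 peak regions that lay outside the exons of coding genes, of 12350 regions in all. MeRIP-Seq uses an antibody to N6-methyladenosine (m6A) to enrich methylated RNA fragments, and peaks are stretches where the enriched (IP) library exceeds the input library. The BMDMs came from 2 WT (*Mettl3* fl/fl *Lyz2*+/+) and 2 KO (*Mettl3* fl/fl *Lyz2*cre/+) C57BL/6 mice aged 8 weeks, and all had grown for 7 days with M-CSF at 40 ng/mL. Both genotypes carried the floxed *Mettl3* alleles, and KO mice in addition carried Cre in the *Lyz2* locus, which is active in cells of the myeloid lineage. An IP and an input library were made per mouse, and 1 peak list was deposited per mouse, named here by genotype and replicate number (WT-1, KO-2). Where 4 values stand together, the WT lists come first, and replicate 1 comes before replicate 2.

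Peaks of the 4 lists were joined into a region where they shared 1 bp or more on 1 strand. A region was kept when it touched no exon, on its own strand, of a coding transcript of the 21864 protein-coding genes in the basic set of GENCODE M21. The 754 regions kept were then sorted in a fixed order. A region on an exon of a noncoding gene (240 regions) came first, followed by a region in the body of a coding gene (an intron region, 371) and a region within 5000 bp of the end of a coding gene (downstream, 85). Regions across a coding gene of the other strand (antisense, 11) and the rest (intergenic, 47) completed the 5 classes. The other 11596 regions touched a coding exon and are called coding-exon regions.

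METTL3 is the catalytic subunit of the complex that places most m6A on messenger RNA, often at an adenosine within the letters GGAC. The mark is known mainly from long exons and from the surroundings of stop codons, but it also occurs on long noncoding RNAs and on introns that stay in a transcript. Retained introns, pseudogenes (copies of genes that lost their function) and transcripts that run past an annotated gene end are the usual places where a read of processed RNA falls outside a known coding exon.

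The lists held between 6159 and 6684 peaks without read counts. Library depth is therefore unknown, and lists were compared by the presence of a peak and by its score rank within the list, never by the score itself. *Mettl3* had an exon peak in 0 of the 4 lists, which gives no check of the genotypes. Of 10 macrophage markers 4 had an exon peak in 1 list or more, beside 1 of 4 T cell, 1 of 4 B cell, 0 of 5 neutrophil and 2 of 4 fibroblast markers. A peak is not a level, so these counts do not measure the share of any cell type. WT-2 stood apart in intron regions, as given below.

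The sequences below are the stretches around the central GGAC in the first 2 regions of each class that hold the motif, ordered by the number of lists with a peak and then by score. They are read 5′ to 3′ on the strand of the peak, from the RefSeq sequence of GRCm38, with each GGAC in capitals.
Gm8775, noncoding gene, chr3:4211922-4211981, plus strand: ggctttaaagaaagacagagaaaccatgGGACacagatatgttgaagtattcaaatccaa
Tubb4b-ps1, noncoding gene, chr5:7179861-7179920, plus strand: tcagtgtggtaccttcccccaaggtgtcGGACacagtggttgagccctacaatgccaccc
Sfswap, intron, chr5:129502466-129502495, plus strand: gcttctgggcccaGGACtaactgtgagcaa
Scly, intron, chr1:91310950-91311009, plus strand: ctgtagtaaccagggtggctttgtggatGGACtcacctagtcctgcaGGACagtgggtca
Zfp969, downstream, chr2:175691228-175691257, minus strand: actttgggccaaaGGACacattcagttttc
Zfp965, downstream, chr2:175482777-175482806, plus strand: cttggcattattgGGACtattgatgctggt
Cmc1, antisense, chr9:118069320-118069349, plus strand: cagccagcctcgaGGACtgagcaactgctg
Zfp668, antisense, chr7:127876897-127876926, plus strand: gcattagcatctaGGACacttcctggttcc
Ahnak2, intergenic, chr12:112785103-112785132, minus strand: aaggccaaaggaaGGACaagaaagagacaa
Mia3, intergenic, chr1:183357595-183357624, minus strand: cggttccgtcagtGGACcaaaagcaggcca

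Of the 754 regions, 559 (74.1%) held a GGAC on the strand of the peak and 65.1% held its reverse complement GTCC. Among coding-exon regions, which were longer (median 500 bp against 377 bp), the shares were 86.5% and 78.7%. In windows of equal length, the central 200 bp, 51.2% of the regions outside coding exons held GGAC and 38.2% held GTCC, beside 60.2% and 45.6% of coding-exon regions. The classes differed in this. GGAC was in the central 200 bp of 57.9% of noncoding gene regions, 57.4% of intergenic, 49.4% of downstream and 46.9% of intron regions, and GTCC in 45%, 36.2%, 35.3% and 34.2% in that order. Antisense regions were the exception, with GGAC in 36.4% and GTCC in 54.5% of only 11 regions. A match of 4 letters is a description of the sequence and does not mark a methylated site.

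Per list, peaks outside coding exons held 3.99 and 4.74 GGAC per kb in the WT lists and 3.71 and 3.93 in the KO lists. GTCC occurred 2.53, 2.89, 2.53 and 2.65 times per kb in the same order. GGAC was thus denser on the strand of the peak in 4 of 4 lists, by 1.44 ± 0.295 per kb (SD, n = 4 lists; two-sided exact permutation test of sign changes, p = 0.125, the smallest that 4 lists allow). The density was below that of the same lists' coding-exon peaks, which held between 4.64 and 4.88 GGAC per kb, in 4 of 4 lists. This difference was -0.645 ± 0.381 per kb (SD, n = 4 lists, exact permutation test, p = 0.125), and it was -1.21 in the central 200 bp and -0.108 for GGACT. It was smaller in WT-2 than in the other lists.

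**Figure D1:**
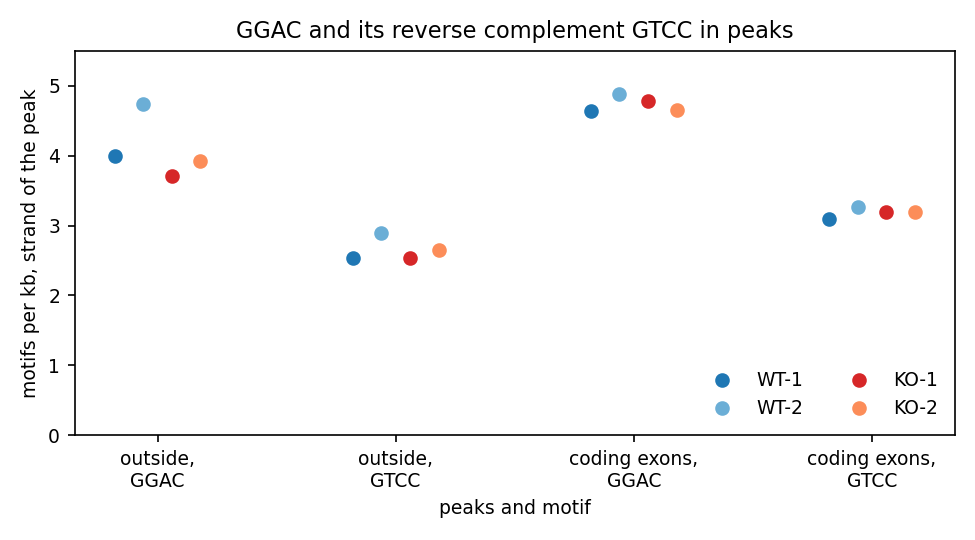
Occurrences of GGAC and of its reverse complement GTCC per kb (vertical axis) on the strand of the peak, for peaks outside coding exons and for coding-exon peaks, with 1 point per list. GGAC lies above GTCC in every list, and GGAC outside coding exons lies between 3.71 and 4.74 per kb.

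Regions outside coding exons recurred less than coding-exon regions. The rule bears on this, since a wider region, or one joined from peaks of more lists, is more likely to touch a coding exon. How much of the difference this makes up was not tested. A midpoint criterion, which kept 1103 regions, was not applied to recurrence or width. Of the 754 regions, 493 (65.4%) had a peak in 1 list, 141 in 2, 75 in 3 and 45 (5.97%) in all 4, whereas 48.4% of coding-exon regions had a peak in 1 list and 18.6% in all 4. Counted per list, 53.4% and 58.2% of the outside peaks of the WT lists and 63.1% and 61.7% of those of the KO lists overlapped a peak of another list, beside between 73.5% and 81.1% of coding-exon peaks. The difference was -17.8 ± 3.01 percentage points (SD, n = 4 lists) and had the same sign in 4 of 4 lists (exact permutation test, p = 0.125, the smallest possible). It shrank to -6.57 when retained-intron and other noncoding transcripts of coding genes were also counted as exons, a setting chosen after the data were seen that removes most intron regions. The classes stood apart from each other here. Peaks were found in all 4 lists for 33 of 240 noncoding gene regions, 4 of 47 intergenic, 4 of 85 downstream, 4 of 371 intron and 0 of 11 antisense regions.

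**Figure D2:**
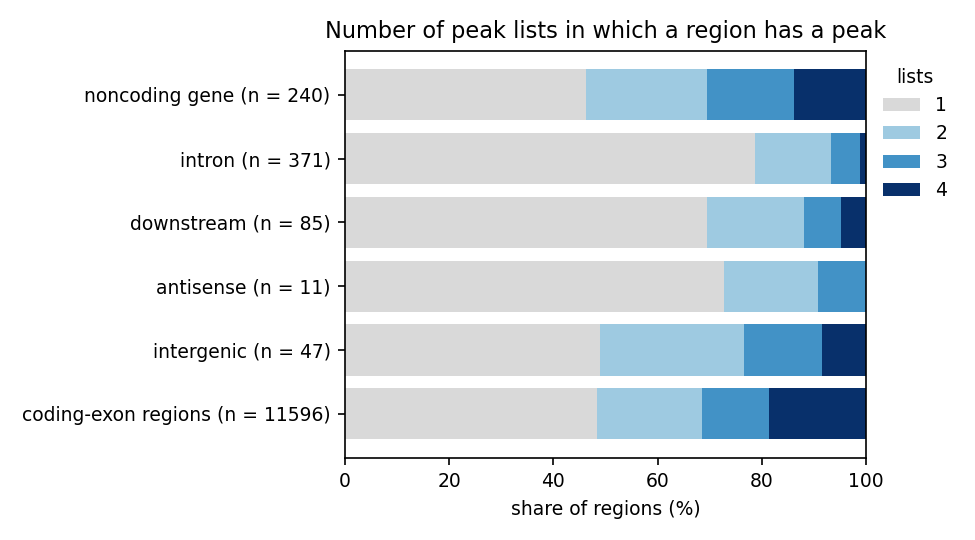
Share of regions (horizontal axis, %) with a peak in 1, 2, 3 or 4 lists, for each class outside coding exons and for the 11596 coding-exon regions. Of the intron regions 78.7% have a peak in 1 list, against 46.2% of noncoding gene regions.

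Outside peaks were also narrower, which the rule favours in the same way. Their median width was 374 bp and 378 bp in the WT lists and 380 bp and 400 bp in the KO lists, and that of coding-exon peaks was between 488 bp and 552 bp, a difference of -130 ± 16 bp (SD, n = 4 lists, exact permutation test, p = 0.125). No list holds a peak under 300 bp. Scores were compared only as ranks within a list, where 100 is the highest. The median rank of outside peaks was 50.4 and 50.8 in the WT lists and 43.4 and 42.1 in the KO lists, beside 50 to 50.5 for coding-exon peaks. The ranks were thus close to the middle in WT lists and lower in KO lists, and the mean difference of -3.52 ± 4.84 (SD, n = 4 lists) was not larger than the spread between lists (exact permutation test, p = 0.5). It was -9.19 among each list's upper 50% of peaks by score and turned to 1.72 with exons of every transcript in the comprehensive annotation. By genotype the median rank of outside peaks was 50.6 ± 0.252 in WT and 42.8 ± 0.973 in KO lists (SD, n = 2 each). The groups did not overlap, but 2 lists against 2 cannot give a p below 0.333, which is the p found (exact permutation test over 6 labellings).

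The share of a list's peaks that lay outside coding exons was 4.81% in WT-1 (296 peaks, Wilson 95% interval 4.3 to 5.37), 3.78% in WT-2 (237 peaks, 3.34 to 4.29), 5.27% in KO-1 (336 peaks, 4.75 to 5.84) and 5.16% in KO-2 (345 peaks, 4.66 to 5.72). The intervals cover counting error only. The mean was 4.3% ± 0.723 in WT and 5.21% ± 0.0753 in KO (SD, n = 2 each), a difference of 0.92 percentage points (exact permutation test, p = 0.333, the smallest possible). It was 0.4 without WT-2 and 0.0872 when each list was limited to its upper 50% by score.

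By class, intron peaks carried most of this difference. They made up 2.08% and 0.958% of all peaks in the WT lists (128 and 60 peaks) and 2.32% and 2.17% in the KO lists (148 and 145 peaks). The KO minus WT difference was 0.727 percentage points (exact permutation test, p = 0.333). WT-2 was low and the other 3 lists lay close together. Noncoding gene peaks were even across the lists, with 119 and 120 in the WT lists and 122 and 138 in the KO lists (p = 1 for their share of all peaks, exact permutation test). Downstream peaks numbered 27, 36, 34 and 29, and antisense peaks 2, 5, 3 and 5, in the same order, with WT and KO lists overlapping in both. Intergenic peaks numbered 20 and 16 in the WT lists and 29 and 28 in the KO lists. Here the KO lists lay above both WT lists, by 0.147 percentage points of all peaks (exact permutation test, p = 0.333).

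**Figure D3:**
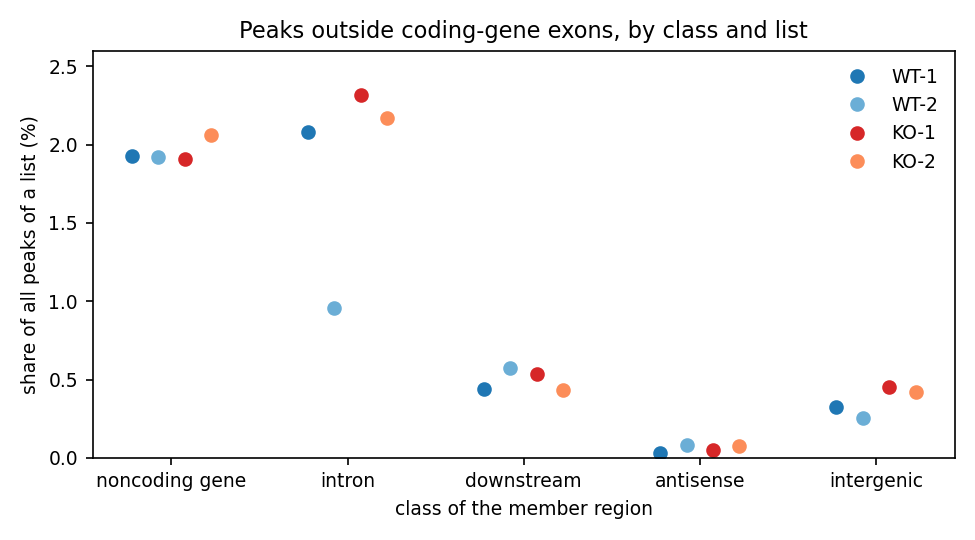
Peaks of each class outside coding exons as a share of all peaks of a list (vertical axis, %), with 1 point per list. The intron share of WT-2, 0.958%, lies apart from the other 3 lists (2.08% to 2.32%), while the noncoding gene share is 1.91% to 2.06% in all lists.

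KO-only regions are those with peaks from KO-1 and KO-2 and none from a WT mouse, and WT-only regions are the reverse. Of the 754 regions, 63 (8.36%) were KO-only, beside 6.19% of all 12350 regions, and 15 (1.99%) were WT-only, beside 3.32% of all regions. Intron regions held 29 of the 63 KO-only and 1 of the 15 WT-only regions, and noncoding gene regions held 20 and 10. The low number of intron peaks in WT-2 enters both counts. With WT-2 left out and the regions otherwise kept, 81 of 655 regions (12.4%) were KO-only and 153 (23.4%) WT-only, beside 11.5% and 18.7% of all regions. Intron regions then held 89 WT-only and 32 KO-only. With WT-1 left out instead, 102 of 616 (16.6%) were KO-only and 114 (18.5%) WT-only, beside 12.8% and 19.5% of all regions, and intron regions held 42 WT-only and 44 KO-only. The excess of KO-only over WT-only regions thus turned over the 754 regions when either WT list was left out, and among intron regions when WT-2 was. It turned in both cases for all regions too, since a WT-only region then needs a peak in 1 list and a KO-only region in 2. Without a peak, a missing mark, less of the RNA and lower depth cannot be told apart, nor can fewer cells of a type and less RNA per cell.

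Noncoding gene regions were mostly pseudogenes. Of the 240, 153 (63.8%) lay on pseudogenes, 101 of them processed pseudogenes, which arise when a spliced messenger RNA is copied back into the genome. The other 87 included 39 on genes annotated as antisense (23 of them on *Kcnq1ot1*), 16 on lincRNAs, 15 on processed transcripts and 10 on entries that await an experiment (TEC). Pseudogene regions had a peak in all 4 lists in 26 of 153 cases (17%) and the others in 7 of 87 (8.05%).

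Of the pseudogene regions, 130 (85%) aligned over at least 90% of their length and at 90% identity or more to a coding transcript of another gene. Their identity ranged from 90.5% to 100% with a median of 99.1%. Only 4 of the 87 other noncoding gene regions aligned in this way. Reads from such a pair cannot be told apart with certainty, so the gene of origin of these 130 regions is uncertain. In the same list, the aligned stretch of the coding gene also had a peak for 83 of 266 pseudogene peaks (31.2%). This share was 38.1% and 27.5% in the WT lists and 30% and 29.7% in the KO lists. Where a list had no peak on the pseudogene, it was 8.96% and 11.5% in the WT lists and 7.14% and 8.93% in the KO lists. For 90 of the 130 regions the aligned stretch had no peak in any list. The coding gene had an exon peak anywhere, in 1 list or more, for 53 of the 130. Ribosomal protein genes were the similar gene for 26 of the 153 pseudogene regions.

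The 6 noncoding gene regions that lead by recurrence and score stood at a score of 3100 in all 4 lists, a value at which many scores of the lists tie, so they cannot be ordered among themselves. In all, 11 noncoding gene regions had this score in 4 of 4 lists. *Gm8775* (chr3:4211716-4212228, plus strand) was 99.4% identical to *Hnrnph2*, which encodes an RNA-binding splicing protein, and the aligned stretch of *Hnrnph2* had a peak in 3 lists. *Tubb4b-ps1* (chr5:7179365-7180699, plus strand) was 98.4% identical to *Tubb4b*, a beta-tubulin gene, whose aligned stretch had a peak in 0 lists. *Gm9825* (chr6:7982592-7983430, minus strand) was 99.3% identical to *Rnps1*, which encodes a protein of the exon junction complex, again with a peak there in 0 lists.

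The other 3 of these regions had no similar coding transcript at these limits. *AA474408* (chr7:110059366-110060324, minus strand) is a TEC entry without a RefSeq exon. *AA414768* (chrX:12937242-12937957, plus strand) and *Gm12250* (chr11:58187739-58189637, plus strand) are processed pseudogenes in GENCODE, but RefSeq places exons of curated mRNAs there. A second *Gm12250* region 3′ of it, chr11:58189872-58190198, fell outside the GENCODE entry and had scores of 235 in WT-1 and 825 in WT-2 and no peak in either KO list.

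Near-identical pseudogene copies also paired with each other. *Gm18852* (chr7:105924335-105928691) and *Gm18853* (chr7:106185743-106190099), both at 3100 in all 4 lists, were 100% identical over 100% of their length, and cannot be counted as separate sources of reads. *Gm1966* (chr7:106596127-106604039), at 7913 bp the longest of the 754 regions, was 92.8% identical to *Gvin1*, which encodes a very large interferon-inducible GTPase, and *Gvin1* had a peak at the aligned place in 4 of 4 lists. Over all classes, 49 of the 754 regions had such a near-identical partner among the regions themselves. These 3 genes and the second *Gm12250* region were chosen after their values were seen.

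**Figure D4:**
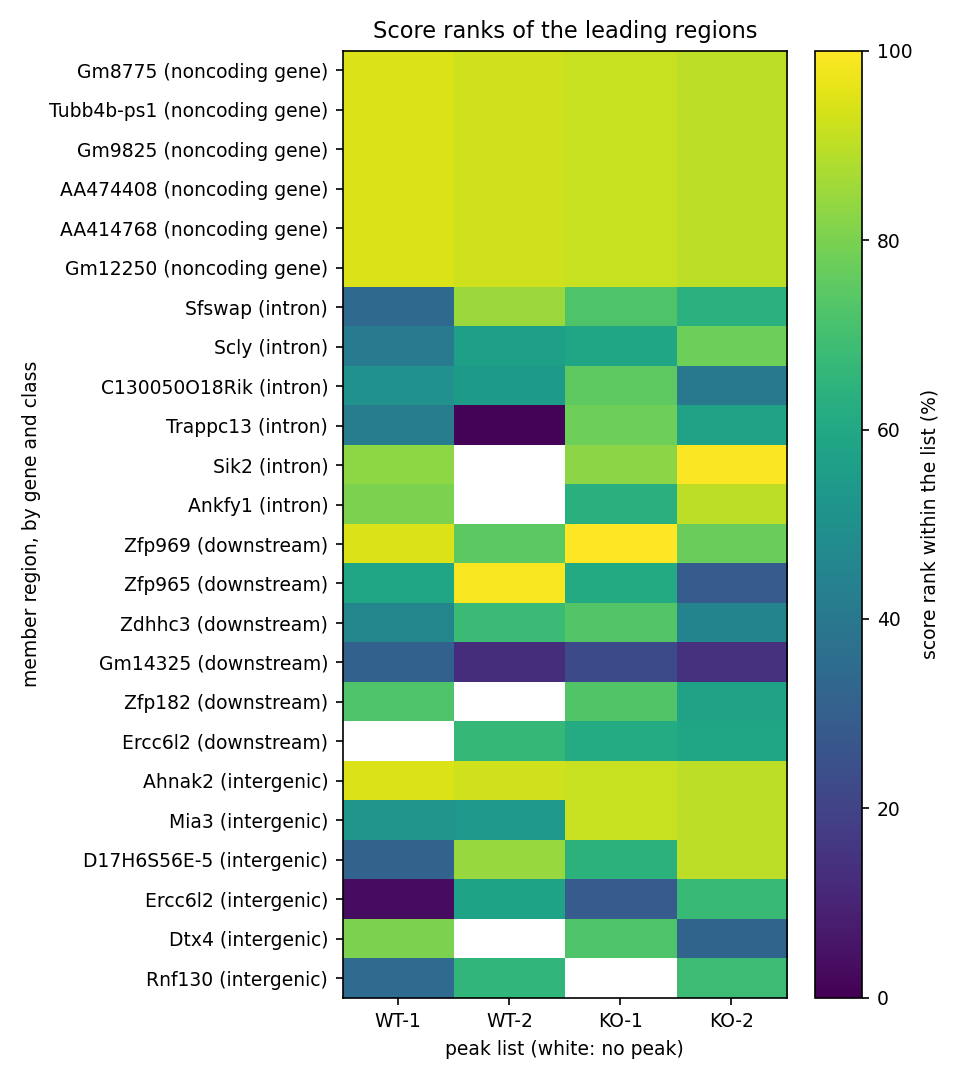
Score rank within each list (colour, %; white means no peak) of the 6 leading noncoding gene, intron, downstream and intergenic regions, in rows, across the 4 lists, in columns. The 6 noncoding gene regions share the same high ranks because their scores tie at 3100, whereas intron and downstream regions vary between lists.

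Of the 87 noncoding gene regions that were not on pseudogenes, 23 lay on *Kcnq1ot1*, an imprinted RNA transcribed antisense within *Kcnq1* that is known to silence neighbouring genes in cis. Of a list of 31 noncoding RNAs, 29 are in the annotation under the name used, and *Kcnq1ot1* was the 1 gene with a region outside coding exons. *Malat1*, *Neat1*, *Gas5* and the *Snhg* genes of the list had none. The deposited lists carry the label mRNA, and whether peaks on noncoding RNAs were filtered out is not given in the sources used here, so nothing can be read from these absences. The 23 regions of *Kcnq1ot1* were spread over 48 kb of an RNA annotated as 93.1 kb long (chr7:143203458-143296549, minus strand). The first began 25 kb from the start of the RNA. Peaks were listed in 13 and 2 of these regions in the WT lists and in 15 and 13 in the KO lists. WT-2 was low here as for introns, and WT-1 was as high as KO-2. No region had a peak in all 4 lists, 7 had peaks in 3, and in 6 of these 7 the list without a peak was WT-2. GGAC was present in 20 of the 23 regions.

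The *Kcnq1ot1* region at chr7:143247933-143249702 had scores of 893 in WT-1, 1899.8 in KO-1 and 3100 in KO-2 and no peak in WT-2. The region at chr7:143228596-143229884, with scores of 1435.6 in KO-1 and 3100 in KO-2, was 1 of 5 KO-only regions of this RNA. The region at chr7:143258774-143259317 was WT-only, with scores of 474 in WT-1 and 1170.4 in WT-2. Of all 23 regions on this RNA 5 were KO-only and 1 was WT-only, beside 6.19% and 3.32% of all regions in the lists. WT-2 had peaks in only 2 of the 23, which enters the KO-only count. Of the 3 regions named here, the first and the last were chosen after their values were seen. Without *Kcnq1ot1*, WT-2 had peaks in 110 noncoding gene regions.

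**Figure D5:**
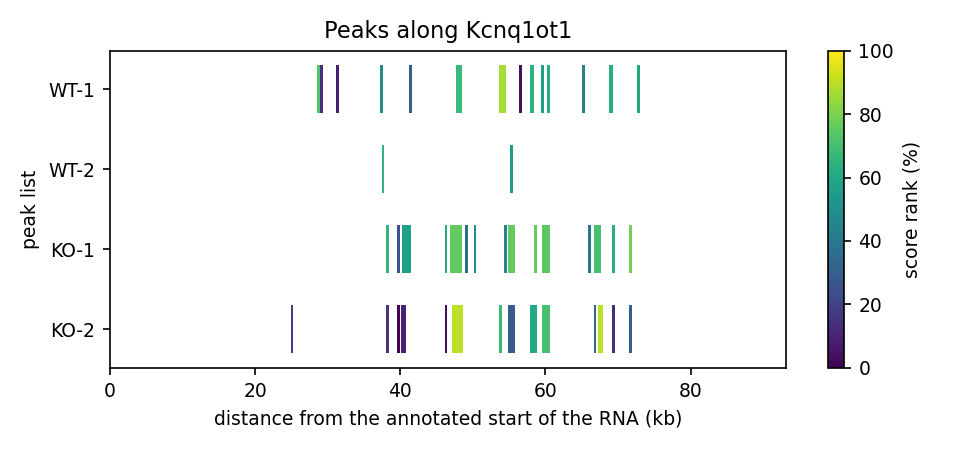
Peaks along *Kcnq1ot1*, by distance from the annotated start of the RNA (horizontal axis, kb), with 1 row per list and the score rank within the list as colour (%). Peaks lie in 13 and 2 regions in the WT lists and in 15 and 13 regions in the KO lists.

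Among noncoding genes that are not pseudogenes, 7 regions had a peak in all 4 lists, among them *AA474408* above. *Gm7292*, a lincRNA at chr6:117716473-117717467, had a score of 3100 in each list. *A130051J06Rik*, an antisense gene at chr15:95790238-95791243, had scores of 211 and 1216.2 in the WT lists and 3100 and 3100 in the KO lists. *1500004A13Rik*, at chr3:88823361-88823958, had 155, 677, 1803 and 3100 in the same order. A second region of *1500004A13Rik*, chr3:88824261-88824686, was WT-only, with low scores of 53 in WT-1 and 195 in WT-2 (ranks 0.325 and 14.7). The remaining 3 were *Gm10076*, *AI506816* and a processed transcript of *Zswim6*, where RefSeq places an exon of a curated mRNA. The *Gm10076* region was 99.5% identical to the coding gene *Rpl41* over 99.7% of its length, so its gene of origin is uncertain. The aligned place of *Rpl41* had a peak in 0 lists. At *AI506816* RefSeq has an exon of a model (predicted) mRNA of *Gm42226*. By rank within a list, *A130051J06Rik* stood at 22.8 and 66.2 in the WT lists and at 91.6 and 89.9 in the KO lists. The first *1500004A13Rik* region stood at 15.5 and 48.9 against 75.3 and 89.9, and *AI506816* at 50.6 and 39 against 59.2 and 69.1. WT and KO ranks overlapped for *Gm10076* and *Zswim6*, and *AA474408* and *Gm7292* tie at 3100. This was not tested and not counted over all regions, so nothing is read from it. All 7 were chosen for naming after their values were seen, except *AA474408*.

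Intron regions, 371 on 311 genes, were the largest class. The comprehensive GENCODE annotation, which holds transcripts that the basic set leaves out, placed an exon of a retained-intron transcript at 261 of them (70.4%, Wilson 95% interval 65.5 to 74.8). Another 28 fell on coding transcripts outside the basic set, 4 on transcripts subject to nonsense-mediated decay and 29 on other noncoding transcripts of coding genes, and 49 (13.2%) touched no exon of a coding gene. By bases, 69.3% of the 163205 bases in intron regions were exonic in a retained-intron transcript, beside 2.25% of all 362803118 intronic bases of the genes with a coding-exon region. RefSeq had no exon at 289 of the 371.

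The host gene had a coding-exon region as well in 271 of 371 cases (73%). Intron regions lay a median of 806 bp from the nearest coding exon of the host, with quartiles of 403 and 1560.5 bp, and 2 of 370 with such an exon were within 10 bp of it. Of 352 regions that lay inside a single intron of the host's longest coding transcript, 30 (8.52%) were in the first and 28 (7.95%) in the last intron, where hosts had a median of 13.5 introns. Repeats, as marked in lower case in the genome sequence, made up 25.8% of the bases of intron regions and 10.7% of those of coding-exon regions.

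Pairs of lists shared few intron regions. Of the 127 intron regions of WT-1, 8 also had a peak in WT-2, and 30 and 27 had one in the KO lists, and of the 147 of KO-1, 51 had one in KO-2. Among noncoding gene regions 55 of the 112 of WT-1 recurred in WT-2 and 81 of the 118 of KO-1 in KO-2. The share on a retained-intron transcript was 74% and 55% in the WT lists and 68% and 69.7% in the KO lists, and it was 72.3% for the 292 regions seen in 1 list and 63.3% for the 79 seen in 2 or more.

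The 4 intron regions with a peak in every list varied widely in score. That of *Sfswap*, a splicing regulator, lay in intron 1 of 17 (chr5:129502022-129503006, plus strand) on a retained-intron transcript, with scores of 310 and 2808 in the WT lists and 1556.8 and 1363.9 in the KO lists. That of *Scly*, the gene of selenocysteine lyase, lay in intron 7 of 11 (chr1:91310439-91311330, plus strand), also on a retained-intron transcript, with 380, 860, 841 and 2669.6 in that order. The coding exons of *Scly* had a peak in 0 lists. The region of *Trappc13*, which encodes a subunit of the TRAPP vesicle-tethering complex, lay at chr13:104173891-104174629 (minus strand) on a curated RefSeq mRNA of *Shld3*, a gene of DNA double-strand break repair, and had scores of 396, 61.1, 2137.7 and 1059.8. The fourth, *C130050O18Rik* (chr5:139410939-139412342, plus strand), had 519, 803, 1804.4 and 557. By rank within a list, the WT and KO lists overlapped for *Sfswap* and *C130050O18Rik*. The *Scly* region ranked at 40.9 and 56.6 in the WT lists and at 58.8 and 77.9 in the KO lists. That of *Trappc13* ranked at 42 and 0.894 against 78 and 57.8. Both KO ranks were thus above both WT ranks in these, with no test. How many of all regions separate in this way was not counted, so nothing is read from these cases.

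Next came regions that lacked a peak in WT-2 alone, 15 of the 21 with peaks in 3 lists. That of *Sik2*, a salt-inducible kinase gene, lay in intron 4 of 15 (chr9:50933836-50934369, minus strand), was 87.3% repeat sequence and had scores of 1845.7 in WT-1, 2812.7 in KO-1 and 3179.3 in KO-2. That of *Ankfy1*, which encodes an endosomal Rab5 effector, lay in intron 4 of 24 (chr11:72724057-72725180, plus strand) and had 1584.4, 1026.4 and 3100. Both lay on retained-intron transcripts.

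Splicing regulators and macrophage transcription factors were looked up as groups. Of 43 splicing regulators 19 had a coding-exon region and 3 an intron region. *Srsf4*, of the SR protein family, had a score of 404 in WT-1 alone (chr4:131885208-131885511, plus strand). *Tra2a*, a splicing activator, had 1807.1 in WT-1 and 215 in KO-1 (chr6:49252803-49253108, minus strand), and the regions of both genes lay on their own curated RefSeq mRNAs. *Hnrnpm*, a gene of the hnRNP family, had a KO-only region (chr17:33675739-33676117, minus strand; 381 in KO-1 and 66 in KO-2) and a second region with 590 in WT-1 alone (chr17:33676399-33676750), so that its regions went both ways within the same part of the gene.

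Of 32 macrophage transcription factors 23 had a coding-exon region and 2 an intron region. *Zeb2*, a zinc finger repressor that helps to keep macrophage identity, had 4 intron regions, and all 4 had a peak in KO-1 and KO-2. The region at chr2:45105016-45105631 (minus strand, intron 2 of 9) had scores of 1606.5 in WT-1, 495 in KO-1 and 3100 in KO-2, and that at chr2:45104285-45104690 had 561, 1256.5 and 302. The regions at chr2:45105941-45106337 (1472.8 in KO-1, 2149.1 in KO-2) and chr2:45020897-45021318 (2679.8 and 286) were KO-only, beside 7.82% of intron regions and 6.19% of all regions. The low number of intron peaks in WT-2 enters here too, and no genotype difference was tested for this gene. WT-2 had a peak in none of the 4, although the coding exons of *Zeb2* had a peak in 4 of 4 lists. *Runx1*, a factor of blood cell development, had 2 intron regions of 1 list each, with scores of 802 in WT-1 (chr16:92686989-92687345) and 275 in KO-2 (chr16:92687571-92687945), both on the minus strand.

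More than 1 intron region was found on 48 of the 311 host genes. *Macf1*, which encodes a giant linker of microtubules and actin, had 6, with peaks in 4 and 3 of them in the WT lists and in 0 and 2 in the KO lists. The WT-only intron region was one of these (chr4:123664466-123664780, minus strand; 1145.5 in WT-1 and 1339.8 in WT-2), and it lay on a coding transcript outside the basic set. *Lcorl* had 5 regions, and *Ikbkb*, which encodes a catalytic kinase of NF-κB signalling, had 4, in 3 of which WT-1 had a peak, with 1 each in WT-2 and KO-1 and 0 in KO-2. *Ikbkb* had a coding-exon peak in 0 lists. *Lcorl* and *Ikbkb* were chosen after their values were seen. Among KO-only introns, *Creb5*, a bZIP transcription factor gene, had scores of 1086.5 in KO-1 and 3100 in KO-2 (chr6:53647113-53647637, plus strand), and *Has1*, a hyaluronan synthase gene, had 2620.4 and 1446 (chr17:17849212-17849757, minus strand).

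Downstream regions lay close to the gene end, at a median of 943 bp and within 1000 bp in 44 of 85 cases. RefSeq placed an exon of a curated mRNA of the same gene at 70 of the 85 (82.4%). The gene had a coding-exon region too in 64 of the 85. The letters AATAAA, the most common polyadenylation signal, were in 31.8% of downstream regions and in 28.4% of coding-exon regions, which are longer. Intron regions (32.1%) and noncoding gene regions (30.8%) held them about as often, so this share is not particular to downstream regions.

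Of the 4 downstream regions with a peak in every list, 3 lay in a cluster of zinc finger genes on chromosome 2. *Zfp969* (chr2:175690881-175691508, minus strand, 715 bp past the gene end) had scores of 3100 and 1751.6 in the WT lists and 3187.5 and 2553.3 in the KO lists. *Zfp965* (chr2:175482385-175483322, plus strand, 214 bp past the end) had 666, 3109, 929 and 359, and *Gm14325* (chr2:177829325-177831415, minus strand) had 280, 180, 224 and 180. Of the 75 regions on chromosome 2, 18 lay in this cluster, chr2:175192980-177944944, 15 of them downstream and 3 in introns. Of the 18, 16 had a near-identical partner among the regions or a similar coding transcript elsewhere, so which gene of the cluster gave the reads is uncertain. Outside the cluster, *Zdhhc3*, a palmitoyltransferase gene, had a region 1692 bp past its end (chr9:123069961-123070618, minus strand) with scores of 450, 1314.9, 1611.3 and 665. *Zfp182* (chrX:21027094-21027689) had 1110.7 in WT-1, 1580.5 in KO-1 and 1058.5 in KO-2. By rank within a list, WT and KO lists overlapped for the 4 regions with a peak in every list.

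*Ercc6l2*, a gene of DNA repair, had regions in 2 classes. The one 2309 bp past its GENCODE end (chr13:63871964-63872863, plus strand) had scores of 1244 in WT-2 and 946 and 1106.5 in the KO lists. A second, beyond the limit of 5000 bp and hence intergenic (chr13:63898564-63899690), had 79 and 902 in the WT lists and 284 and 1590.4 in the KO lists, and both lay on curated RefSeq mRNA exons of the gene. *Flywch1* (chr17:23752822-23753762, minus strand), 1652 bp past the end, was WT-only, with 353 in WT-1 and 2677.1 in WT-2.

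Of the 47 intergenic regions 20 lay on exons of curated RefSeq mRNAs, 7 on curated RefSeq noncoding exons and 19 on no RefSeq exon. The 4 with a peak in each list were all on curated RefSeq mRNAs. That of *Ahnak2*, a gene of a very large scaffold-like protein, stood at 3100 in all 4 lists (chr12:112784573-112785595, minus strand). That of *Mia3*, whose protein helps to export collagen from the endoplasmic reticulum, had scores of 545 and 771 in the WT lists and 3100 and 3100 in the KO lists (chr1:183356346-183359015, minus strand). A second *Mia3* region (chr1:183353735-183354120) was KO-only, with 566 and 271, and was named after its values were seen. The first ranked at 52.2 and 53.4 within the WT lists and at 91.6 and 89.9 within the KO lists. This was not tested, and how many of all regions separate in this way was not counted. That of *D17H6S56E-5* (chr17:34996724-34999469, minus strand) had 286, 2784.8, 1068.3 and 3100, and its WT and KO ranks overlapped. *Dtx4* (chr19:12501585-12501996, minus strand) and *Rnf130* (chr11:50120014-50120661, plus strand), both genes of E3 ubiquitin ligases, each had peaks in 3 lists. The scores were 1568.9 in WT-1, 1563.4 in KO-1 and 403 in KO-2 for *Dtx4*, and 319 in WT-1, 1206.8 in WT-2 and 1680.6 in KO-2 for *Rnf130*. Of the 47, 10 (21.3%) had a near-identical partner among the regions, beside 49 (6.5%) of the 754. A similar coding transcript elsewhere was found for 8 (17%). Such regions may share reads, so the counts that follow are not counts of separate sources. Of the 47, 8 (17%) were KO-only, beside 6.19% of all regions, and 2 (4.26%) WT-only, beside 3.32%. Without WT-1, 12 of 42 (28.6%) were KO-only and 6 (14.3%) WT-only, beside 12.8% and 19.5% of all regions. Without WT-2, 9 of 43 (20.9%) were KO-only and 7 (16.3%) WT-only, beside 11.5% and 18.7% of all regions.

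Antisense regions were rare, and 8 of the 11 had a peak in 1 list. Just 3 of the 754 regions overlapped a region on the other strand, as did 25 of the 11596 coding-exon regions (0.216%). The labels do not say how strand was assigned in the peak lists. The region opposite *Als2cr12* (chr1:58647739-58648317, plus strand) had scores of 1535.5 in WT-2 and 100 and 102 in the KO lists. It held no GGAC and was 99.1% identical to a coding transcript of *Cbx3*, the gene of a heterochromatin protein. Directly upstream on the same strand lay a region on the processed pseudogene *Cbx3-ps7* (chr1:58646681-58647558). This neighbour was 99.4% identical to *Cbx3* and had peaks in 3 lists. Whether both regions belong to 1 transcript was not tested, so the antisense class of the first is uncertain. The region opposite *Cmc1* (chr9:118069031-118069626, plus strand), with 952 in WT-1 and 77.9 in KO-1, lay on a curated RefSeq mRNA of *Azi2*. Those opposite *Zfp668* (chr7:127876796-127877212; 2898.3), *Mrfap1* (chr5:36796228-36796815; 867) in WT-2 and *Ppwd1* (chr13:104228611-104228922; 1663) in KO-2 were listed once.

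Regions of 1 genotype with the highest ranks were mostly pseudogenes in WT. The WT-only region of *AU015228* (chr2:130100483-130100948, plus strand) had scores of 1806.5 in WT-1 and 2149 in WT-2. It is a processed pseudogene in GENCODE, but RefSeq places an exon of a curated mRNA of *AU015228* there. The region was 97.3% identical to the general transcription factor gene *Gtf2e1*, whose aligned place had a peak in 2 lists. That of *Gm5866* (chr5:52582320-52583037, plus strand), similar to *Slc35a4*, had 1211.6 and 1760.3, with a peak at the aligned place in 1 list. *Gm5946* (chrX:150221813-150222797, minus strand), similar to the Polycomb gene *Bmi1*, had 2361.8 and 978, and the aligned place of *Bmi1* had a peak in all 4 lists, both KO lists included. *Gm18856* (chr13:13965201-13965581, minus strand), similar to *Zbtb7b*, had 728 and 1322.6, with a peak at the aligned place in 0 lists.

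Among KO-only regions, *Morf4l1-ps1* (chr16:24529355-24530727, plus strand) was 99.9% identical to *Morf4l1*, a chromatin factor gene, and had scores of 1906.5 in KO-1 and 3100 in KO-2, with a peak at the aligned place of *Morf4l1* in 0 lists. *Gm7676* (chr8:13896295-13896613, plus strand), 97.8% identical to the interferon-induced gene *Ifitm1*, had 1596.1 and 2451.2, also with 0 lists at the aligned place. *Gm49599* (chr16:36875714-36876360, plus strand), a TEC entry, had 1092.7 and 3100.

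Of the 754 regions, 158 (21%) lay on exons of curated RefSeq mRNAs, among them 71 downstream and 40 intron regions. Just 56 (7.43%) touched neither a noncoding gene, nor an exon of a coding gene in the comprehensive GENCODE set, nor a RefSeq exon. A miRNA hairpin of RefSeq lay in 0 of the 754.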

How the data were processed

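MeRIP-Seq peak lists of 2 WT and 2 KO mice were used, 1 per mouse. The authors deposited positions, strands and a score per peak. The submitters' processing notes name cutadapt 1.9.3, HISAT2 2.0.4 and the build mm10. The caller's settings and the scale of the score are not given in the sources used here. Also not given is any filter behind the label mRNA of the lists. The peak names begin with MACS. Scores were ranked within a list only. Starts were shifted by 1 to positions counted from 1. No read counts were analysed, so depth is unknown and the presence and rank of peaks were compared.

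Regions were merged, assigned to GENCODE M21 and RefSeq exons of GRCm38, and aligned with megablast (BLAST+ 2.17.0). Lists were compared by two-sided exact permutation tests, over 6 labellings of WT and KO lists or 16 sign changes within lists. No test could reach a p of 0.05. Mice are the replicates. The code was tested on simulated data, where 5591 of 5591 planted regions were recovered. The class definitions, gene lists and tests were chosen with earlier results of these data known. Named regions are up to 6 per class by number of lists and mean score rank, up to 6 WT-only and 6 KO-only by mean rank, and each region on a gene of the 3 lists (31 noncoding RNAs, 43 splicing regulators, 32 macrophage transcription factors), with other names said to be chosen later. Of the 23 *Kcnq1ot1* regions 3 are given singly and the others as counts, and 1 antisense region is not reported here. Python 3.11.15, numpy 2.4.6, scipy 1.17.1 and matplotlib 3.10.9 were used.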

Additional observations from a re-analysis of the deposited data

How the results depend on the processing

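The lists hold no counts, so the depth of a library and the size of any change in m6A are not measured. With 2 lists per genotype the smallest p was 0.333. 

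Keeping each list's upper 50% by score left, by construction, fewer peaks and gave 371 regions outside coding exons (150 noncoding gene, 163 intron, 29 downstream, 5 antisense and 24 intergenic), 8 WT-only and 20 KO-only, the KO minus WT difference of the outside share was 0.0872 percentage points and the rank difference was -9.19. With exons of every transcript of coding genes in the comprehensive annotation, chosen after the data were seen, 385 regions were left, of which 52 were intron, 5 antisense and 30 intergenic regions and 35 were KO-only. The median score rank of outside peaks was then 1.72 above that of coding-exon peaks, the reverse of the main direction, and the KO minus WT difference of the outside share was 0.277 percentage points. The cause was not tested. The comprehensive annotation with coding transcripts alone gave 5 antisense and 30 intergenic regions. A downstream limit of 1000 bp gave 44 downstream and 84 intergenic regions, and one of 10000 bp gave 7 antisense regions. Assigning noncoding genes after antisense gave 62 antisense regions. Without regions that have a similar coding transcript elsewhere, also chosen after the data were seen, 106 noncoding gene and 8 WT-only regions remained, and recurrence differed by -25.9 percentage points. Without regions on curated RefSeq mRNA exons, chosen later too, 14 downstream and 27 intergenic regions remained. A midpoint criterion gave 1103 regions and a difference of the outside share of 1.65.

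Leaving out 1 list at a time, with peaks merged anew, gave between 22 and 156 WT-only and between 82 and 198 KO-only regions, since 3 lists set a weaker condition. WT-only regions were 119 without WT-1, 156 without WT-2 and 24 without KO-2, and KO-only regions were 103 without WT-1, 197 without KO-1 and 198 without KO-2. The difference of the outside share was between 0.4 (without WT-2) and 1.4 (without WT-1). With a replicate block, pairing lists by number, this difference was again 0.92 percentage points (exact permutation test, p = 0.5, the smallest possible), and the counts of 15 WT-only and 63 KO-only regions are the same by construction. The numbers are not said to mark a shared litter or batch. Recomputed counts were judged by size and differences by sign alone. Of these values, 29 counts moved beyond 1.5 times and 1 difference reversed. The other 128 were counts within 1.5 times or differences that kept their sign. Some of those differences changed more than 1.5 times in size, such as that of the outside share, from 0.92 to 0.0872.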
